A study of Homo sapiens with 3 samples.

Results

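The 50 genes described here encode proteins of the spliceosome and its SR protein partners, and they were taken from a list of symbols that sets no threshold on a measured value. They fall into 7 groups, with 13 genes of the U2 snRNP and branch site, 3 of the U1 snRNP, 7 of the Sm ring, 9 of U5 and the tri-snRNP, 2 of the PRP19 complex, 4 DEAH helicases and 12 SR and TRA2 genes. All 50 were found among the 61193 genes that matched the annotation, of which 19926 are protein-coding. Expression was measured in 3 independent biological replicates of HEK293T, a cell line derived from human embryonic kidney and expressing the SV40 large T antigen, with no treatment and no other condition. The study mapped i-motifs (iMs, folded DNA of C-rich sequence) and G-quadruplexes (G4s, their counterpart in G-rich sequence), and used this RNA-seq to sort genes by expression. The sample labels name genomic DNA as the material but describe an RNA extraction, and the values were read as RNA levels. Since all 3 libraries belong to 1 group, no groups were compared and no p-value is given.

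The spliceosome removes introns from pre-mRNA and is assembled anew on each intron from small nuclear ribonucleoproteins (snRNPs), each made of a short RNA, a ring of Sm proteins and particle-specific proteins. U1 recognises the 5′ splice site, U2 with U2AF recognises the branch site and the 3′ splice site, and the U4/U6.U5 tri-snRNP then joins and is rearranged by helicases into the catalytic form. SR proteins bind exonic enhancers through RNA recognition motifs and recruit U1 and U2AF through domains rich in arginine and serine, and many SR genes limit their own protein through transcripts that carry a poison exon or keep an intron.

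The libraries were prepared with a QuantSeq 3′ kit, which primes at poly(A) and reads the 3′ end of a transcript. Counts summed to 7019253, 6262175 and 8521624 in replicates 1, 2 and 3. The limit that 0 counts leaves, 3 counts, was 0.352 to 0.479 counts per 1000000. Replicate 3 stood apart in its mitochondrial share, at 25.8% of counts compared with 9.59% and 5.70%. Of the 7 markers fixed for the line, PAX2, LHX1 and KRT8 reached 1 TPM (transcripts per 1000000, the count divided by transcript length and rescaled to 1000000 per library), VIM had 0.656 TPM, and NEFM, NEFL and KRT18 were listed at 0 counts. The leukocyte, hepatocyte and endothelial markers had at most 2 counts in any replicate, whereas the fibroblast collagen genes COL1A1 and COL3A1 had 24.8 and 1.68 TPM, the latter with 22, 31 and 100 counts. As set out below for the members, 0 counts cannot be read as absence of an mRNA in these tables. The same limit holds for the markers, of the line and of other cell types alike.

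The members took 1.08% ± 0.216 of library counts (SD, n = 3), with 1.17% and 1.23% in replicates 1 and 2 and 0.833% in replicate 3. Per nonmitochondrial counts the shares were 1.30%, 1.31% and 1.12%, so the third library remained the lowest. Of the 50 members, 39 reached a mean of 1 TPM, the level taken as expressed, compared with 38.2% of protein-coding genes. The high category, at or above the third quartile of all expressed genes (24.1 TPM), held 19 members and 12.5% of protein-coding genes. A further 16 members were medium, 4 were low (at or below 2.40 TPM) and 11 were under 1 TPM. The median over all 50 was 13.6 TPM, compared with 0.195 TPM over protein-coding genes.

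**Figure D1:**
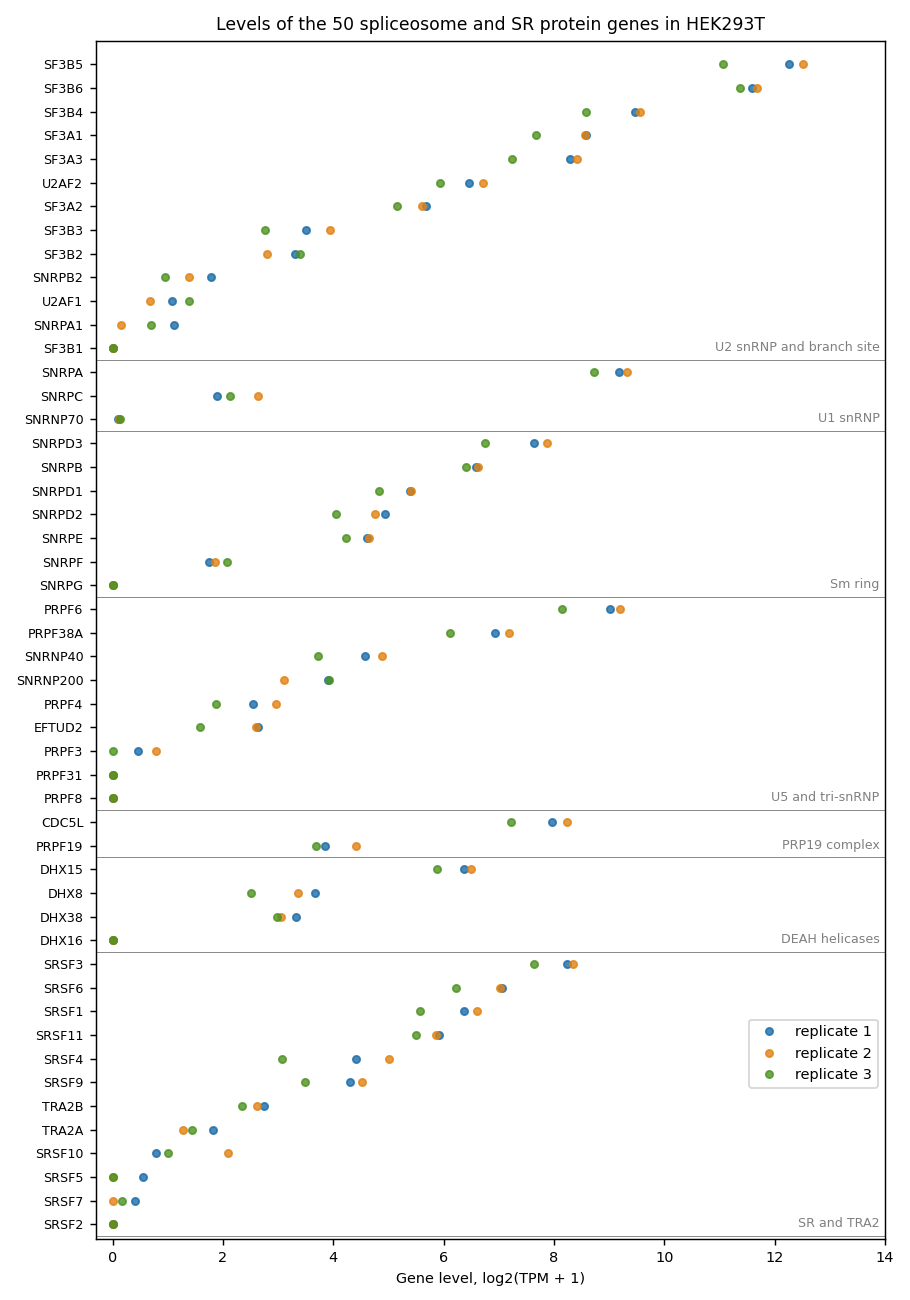
Level of each of the 50 members as log2(TPM + 1) on the horizontal axis, with 1 point per replicate and the members ordered by mean TPM within their group. SF3B5 and SF3B6 lie at the top, 6 members lie at 0 in every replicate, and replicate 3 is the lowest point for most members above 100 TPM.

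The U2 snRNP and branch site genes held most of the members' signal, with 8645 ± 2677 of 11064 ± 3336 summed TPM (SD, n = 3). By counts, which are not divided by length, their part was smaller, with 44214, 41180 and 37000 of 82237, 77327 and 71027. SF3B5 (ENSG00000169976; GRCh38 chromosome 6, 144094884 to 144095573, minus strand), a small subunit of the SF3b complex, which clamps the branch site, had 15343, 15465 and 9873 counts, or 4297 ± 1923 TPM. SF3B6 (ENSG00000115128; chromosome 2, 24067586 to 24076373, minus strand), the SF3b protein that lies next to the branch adenosine, had 9068, 8158 and 11487 counts, or 2994 ± 318 TPM. In TPM SF3B5 was above SF3B6 in replicates 1 and 2 and below it in replicate 3, so their order did not hold beyond the spread. Both encode short mRNAs, and division by length raises short transcripts in a library that reads only 3′ ends.

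SF3B4, which contacts the pre-mRNA beside the branch site, followed with 616 ± 205 TPM. The mean of SF3B6 was 4.86-fold higher, and the replicate ranges of SF3B6 and SF3B4 did not overlap. The SF3a trimer, which joins U2 to SF3b, was uneven, with 321 ± 102 TPM for SF3A1, 267 ± 104 for SF3A3 and 44.2 ± 8.39 for SF3A2. U2AF2, the large U2AF subunit that binds the polypyrimidine tract, had 83.4 ± 21.7 TPM from a nearly equal 1190, 1197 and 1214 counts.

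The other U2 members had lower levels. SF3B3, a scaffold of SF3b, had 10.2 ± 4.29 TPM, and SNRPB2, which binds a U2 RNA stem loop, had 1.66 ± 0.746 TPM from 26, 15 and 15 counts. Its partner SNRPA1 had 13, 1 and 10 counts, the lowest level among the detected U2 members (0.632 ± 0.534 TPM). SF3B1, the largest SF3b subunit, which cradles the branch helix and is recurrently mutated in myeloid neoplasms, had 0 counts in every replicate. U2AF1, the small subunit that reads the AG of the 3′ splice site, had 20, 9 and 42 counts, but all of the 31-base words in the last 300 exonic bases of its canonical transcript also occur in another listed gene, ENSG00000275895, so its count is uncertain.

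Of the U1-specific proteins, SNRPA (ENSG00000077312; chromosome 19, 40750637 to 40765389, plus strand), which binds a U1 stem loop, had 3349, 3111 and 3583 counts and 545 ± 111 TPM. SNRPC, which steadies U1 on the 5′ splice site, had only 10, 16 and 18 counts and 3.75 ± 1.27 TPM. SNRNP70, the third U1 protein and a target of SR proteins, had 1, 1 and 2 counts. Genes for proteins of the same particle were thus listed in the high category, in the medium category and under the floor. Their canonical transcripts differ in how many of the last 300 exonic bases no other listed transcript covers. These were 181 for SNRPA, 63 for SNRPC and 0 for SNRNP70, and their part in the levels was not tested.

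The Sm proteins form the ring around the snRNA of U1, U2, U4 and U5, and are needed together in 1 ring. SNRPD3 led with 3116, 3106 and 2476 counts, or 180 ± 65.3 TPM. SNRPB followed with 496, 434 and 645 counts, or 92.2 ± 7.47 TPM, and its TPM was below that of SNRPD3 in each replicate. SNRPD1 had 36.6 ± 8.04, SNRPD2 23.8 ± 7.39 and SNRPE 21.7 ± 3.34 TPM, and the replicate ranges of each of these neighbours overlapped. SNRPF was the lowest of those detected, with 14, 14 and 27 counts and 2.72 ± 0.428 TPM. SNRPG had 0 counts in every replicate, so the levels of the 7 ring genes were far from equal in these tables.

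Counts were also found at processed pseudogenes, which are intronless copies of an mRNA inserted elsewhere in the genome. Of 76 listed pseudogenes named after 20 members, 20 had more than 3 counts in a replicate, and together they held 3281, 2527 and 3525 counts. The 20 SNRPG pseudogenes had 1991, 1387 and 2211 counts and a summed 1672 TPM, beside the 0 counts of SNRPG itself. SNRPGP2 (chromosome 18, 54406889 to 54407114, minus strand) carried most of them, with 1642, 1183 and 1850 counts and 1398 ± 189 TPM, and SNRPG transcripts contain 43.9% of its 31-base words.

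The same held for SNRPE and SNRPF but not for SNRPB or SNRPD2. The 10 SNRPE pseudogenes had 612 TPM compared with 21.7 for SNRPE, and SNRPEP4 alone had 642, 545 and 699 counts (464 ± 76.6 TPM; 65.1% of its words shared with SNRPE). SNRPFP1 had 294, 324 and 271 counts (251 ± 87.2 TPM; 39.6% shared with SNRPF), compared with 2.72 TPM for SNRPF. The pseudogene values were above those of the gene in each replicate in all 3 cases. SNRPBP1 had 0 counts and the SNRPD2 pseudogenes had 8.14 TPM, below SNRPD2. Outside the ring, SNRPA1P1 had 30, 22 and 24 counts (6.92 ± 2.02 TPM) and the 18 SNRPC pseudogenes 37, 24 and 17 (14.5 TPM), both above the mean level of their gene. Of the words at the 3′ end of the canonical SNRPF transcript, 33.0% also occur in other listed genes. For SNRPE and SNRPG this share was 0%, so the words they share with their pseudogenes lie elsewhere in their transcripts. Whether reads of the Sm mRNAs were assigned to these copies was not tested, and the levels of SNRPE, SNRPF and SNRPG are uncertain for that reason.

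**Figure D2:**
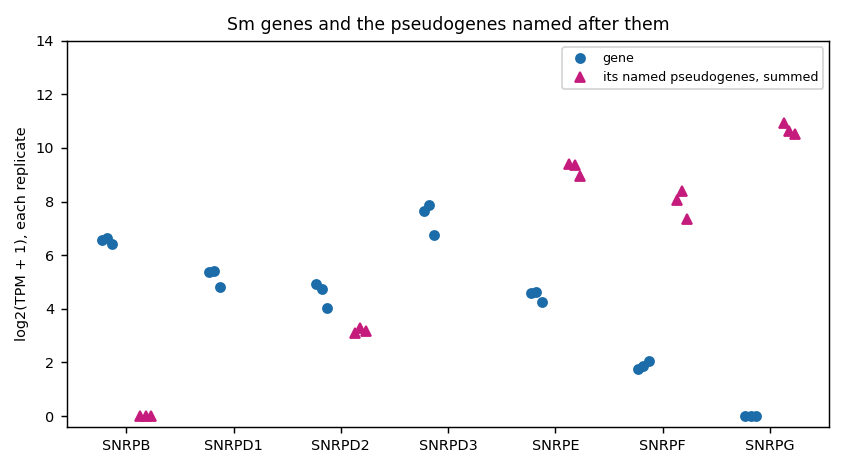
Level of the 7 Sm genes (circles) and of the summed pseudogenes named after each (triangles) as log2(TPM + 1), with 1 symbol per replicate, and no triangles for SNRPD1 and SNRPD3, which have no pseudogene named so. For SNRPE, SNRPF and SNRPG the triangles lie above the circles in all replicates, and the circles of SNRPG lie at 0.

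Among the U5 and tri-snRNP genes, PRPF6 (ENSG00000101161; chromosome 20, 63981132 to 64033100, plus strand), which bridges U5 and U4/U6, led with 7171, 6825 and 5751 counts and 462 ± 158 TPM. PRPF38A, a factor of spliceosome activation, followed with 2873, 2891 and 2392 counts and 111 ± 38.8 TPM. SNRNP40, a WD-repeat protein of U5, had 21.3 ± 8.29 TPM. SNRNP200, the helicase that unwinds U4/U6, had 185, 106 and 310 counts and 11.9 ± 3.69 TPM, with the lowest value in replicate 2. PRPF4, a U4/U6 protein, had 4.78 ± 2.08 TPM. EFTUD2, the GTPase of U5, was the lowest of those detected, with 66, 74 and 46 counts and 4.08 ± 1.81 TPM. PRPF8, the scaffold of the catalytic centre, and PRPF31, a U4/U6 protein mutated in retinitis pigmentosa, had 0 counts in every replicate, and PRPF3, their neighbour in the tri-snRNP, had 3, 3 and 0.

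CDC5L (ENSG00000096401; chromosome 6, 44387706 to 44450425, plus strand), a Myb-like protein of the PRP19 complex, had 7046, 7146 and 6134 counts and 232 ± 77.1 TPM. PRPF19, the ubiquitin ligase that names the complex, had 137, 179 and 184 counts and 15.2 ± 4.56 TPM, below CDC5L in every replicate. The DEAH helicases drive late steps. DHX15, which takes the spent spliceosome apart, had 301, 276 and 339 counts and 76.4 ± 16.4 TPM. DHX8, which releases the spliced mRNA, had 78, 65 and 60 counts and 8.55 ± 3.56 TPM. DHX38, of the step before exon ligation, had 46, 33 and 50 counts and 7.75 ± 1.12 TPM, and DHX16, which acts before the first step, had 0 counts in every replicate.

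The SR and TRA2 genes ranged from the high category to 0 counts. SRSF3 (ENSG00000112081; chromosome 6, 36594353 to 36605600, plus strand), a small SR protein that also serves mRNA export, led with 5753, 5245 and 5549 counts and 274 ± 67.5 TPM. SRSF6 had 2608, 2115 and 2135 counts and 111 ± 32.5 TPM. SRSF1, the founding member of the family and a known oncoprotein, had 1962, 1963 and 1641 counts and 74.8 ± 25.2 TPM. SRSF11, the fourth in the high category, had 897, 793 and 942 counts and 53.7 ± 8.11 TPM. These genes kept this order in each replicate, although the ranges of SRSF6 and SRSF1, and of SRSF1 and SRSF11, overlapped.

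The medium SR genes were SRSF4, SRSF9 and TRA2B. SRSF4 had 279, 299 and 181 counts and 19.6 ± 11.8 TPM, with 31.1 TPM in replicate 2 and 7.41 TPM in replicate 3 on either side of 20.4 TPM in replicate 1. SRSF9 had 83, 84 and 68 counts and 16.9 ± 5.97 TPM. TRA2B, which binds exonic enhancers such as that of SMN2, had 108, 80 and 110 counts and 4.98 ± 0.824 TPM. At the low end, TRA2A had 19, 6 and 19 counts (1.89 ± 0.575 TPM) and SRSF10, a repressor when dephosphorylated, had 5, 23 and 21 counts (1.67 ± 1.40 TPM). SRSF5 had 2, 0 and 0 counts, SRSF7 had 1, 0 and 1, and SRSF2, which is recurrently mutated in myelodysplastic syndromes, had 0 in every replicate.

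In all, 10 members were at or under 3 counts in every replicate, compared with 50.9% of protein-coding genes. They were SF3B1, SNRNP70, SNRPG, PRPF3, PRPF31, PRPF8, DHX16, SRSF2, SRSF5 and SRSF7. The 44 members with any count made 43 neighbouring pairs when ordered by mean TPM. The replicate ranges were apart in only 2 of these pairs, SF3B6 over SF3B4 and DHX38 over TRA2B, and 14 pairs kept their order in every replicate. The ranges are of TPM with mitochondrial genes included, and neighbours in rank are the closest pairs by choice. Overlap between neighbours thus says little about members further apart in level.

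The members under the floor had few or no bases of their own at the 3′ end, with 38 at most. For each member, the final 300 exonic bases of its canonical transcript were searched for bases that no other listed transcript covers on either strand, because a 3′ library reads this stretch and the tables count transcripts separately. In 20 members all 300 bases were exclusive, and none of these was under the floor, with a median of 111 TPM and a range from 1.66 to 4297. In 12 members some bases were exclusive, 2 were under the floor and the median was 11.5 TPM. In 18 members no base was exclusive, 8 were under the floor, and the median was 1.91 and the highest level 76.4 TPM. These are levels of whole genes. The highest was that of DHX15, with 0.798 TPM on its canonical transcript and 54.6 TPM on another transcript, DHX15-202. Over protein-coding genes, 36.8% of 6957 with an exclusive 3′ end, 52.9% of 3994 with a partly exclusive one and 61.8% of 8400 with a fully shared one were under the floor.

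Single transcripts were alike in this. Of the 437 listed transcripts of the members, 167 have no exclusive exonic base, and only 1 of these, SRSF11-202, had any count, 2503 in the 3 replicates together, or 1.09% of the members' counts. The canonical transcript of SRSF11 has 3034 bases in the deposited table and 3959 in GENCODE v44, so the annotation behind the counts differs there from the one used to find exclusive bases. U2AF2, with 1 exclusive base in its canonical end, had all its counts on U2AF2-202, and its neighbour transcript U2AF2-207 likewise has 849 bases in the table and 3067 in v44. Lengths were equal for 421 of the 437. SF3B1 (ENSG00000115524; chromosome 2, 197388515 to 197435079) and PRPF8 (ENSG00000174231; chromosome 17, 1650629 to 1684867), both at 0 counts, have 14 and 16 listed transcripts and no exclusive base in the last 300 of the canonical one. SF3B5, PRPF6 and CDC5L have 1 listed transcript each. How reads on several transcripts were counted is not given in the sources used here, and its part in these levels was not tested, so 0 counts cannot be read as absence of the mRNA.

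**Figure D3:**
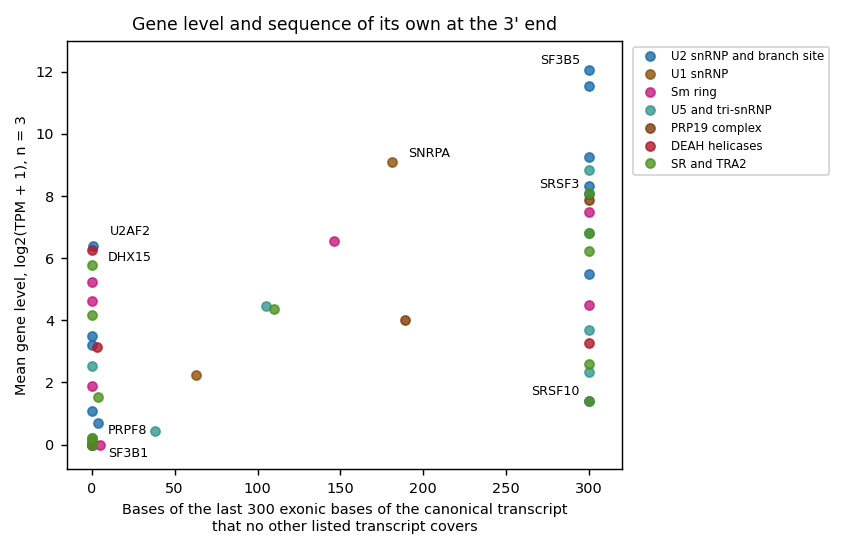
Mean gene level of the 50 members as log2(TPM + 1) over 3 replicates (vertical axis) against the exclusive bases among the final 300 exonic bases of its canonical transcript (horizontal axis), coloured by group. All points at 300 lie above 1 TPM, and the points at 0 TPM lie at 5 exclusive bases or fewer.

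The same feature appeared in a list of 66 other genes of the pathway, such as LSM proteins, U2-associated factors, exon junction proteins and SR kinases. Of these, 45 were expressed, 23 were in the high category and 17 were at or under 3 counts in every replicate, with a median of 9.88 TPM. None of the 29 with an exclusive 3′ end was under the floor, compared with 11 of the 24 with a fully shared one. The highest were LSM3, of the ring around the U6 RNA end, with 644 TPM, BCAS2, of the PRP19 complex, with 338 TPM, and SLU7, of the second step, with 266 TPM.

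Most member counts lay on protein-coding transcripts, with 98.9% ± 0.329 (SD, n = 3) compared with 97.6% ± 0.125 over all protein-coding genes. Retained-intron transcripts, which keep part or all of an intron, held 0.834%, 0.630% and 1.14% of the members' counts in replicates 1, 2 and 3, compared with 1.02% ± 0.106 over all protein-coding genes. Transcripts without a defined coding sequence held 0.204% ± 0.0702. Of the 12 SR and TRA2 genes, 97.8% ± 0.544 of the counts were on protein-coding and 1.74% ± 0.342 on retained-intron transcripts. For the other 38 members these shares were 99.1% ± 0.283 and 0.722% ± 0.239, and the retained-intron share of the SR and TRA2 genes was the higher one in each replicate. Most retained-intron counts of the SR and TRA2 genes came from SRSF9 (100% of 235 counts) and SRSF4 (29.1% of 759). Those of the other members also leaned on single genes, such as DHX15 with 571 on DHX15-202. The difference is therefore not a trait of the SR and TRA2 genes as a group.

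Transcripts marked for nonsense-mediated decay, the type that holds poison exons, had 0, 2 and 2 counts over all members, and all of these fell on SR and TRA2 genes. Of the 48 such transcripts of the members, only 15 have an exclusive base, and none had more than 3 counts in any replicate. Over all protein-coding genes this type held 0.363% ± 0.0148 of counts. Poison-exon transcripts often differ from the coding mRNA in an internal exon alone, and a transcript with no base of its own cannot be told from the others by position, so these counts are no measure of its level.

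The overall shares hid single genes whose counts came mostly from other transcript types. Of the 36 members with at least 10 counts in every replicate, 23 had at least 99% of their counts on protein-coding transcripts, and 4 had most of them elsewhere, compared with 16.3% of protein-coding genes at the same depth. These were DHX15, DHX38, SF3B2 and SRSF9. For DHX15, 62.3% of counts were on DHX15-202, a retained-intron transcript of 727 bases, with 184, 184 and 203 counts, whereas the coding transcript had 8, 15 and 10. A further 34.1% lay on transcripts without a defined coding sequence.

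For DHX38, DHX38-203 (retained intron) had 46, 31 and 47 counts and the coding transcript 0, 2 and 0. The last 300 exonic bases of DHX38 also lie under PMFBP1 on the opposite strand over 233 bases. SF3B2, an SF3b subunit that contacts the pre-mRNA, had all of its 61, 36 and 97 counts on SF3B2-211 and SF3B2-216, which are both of the retained-intron type. SRSF9 likewise had none on its coding transcript, with 75, 70 and 59 counts on SRSF9-202 and 8, 14 and 9 on SRSF9-204, and its whole canonical end overlaps GATC on the opposite strand. The gene levels of these 4 members are thus mostly levels of other transcripts than the coding mRNA. Their canonical 3′ ends have 0 to 3 exclusive bases, whose part in this was not tested. Among detected members below 10 counts in a replicate, U2AF1, SNRPA1 and TRA2A had 100% of their counts on retained-intron transcripts. SRSF10 had 6.12% on protein-coding and 67.3% on retained-intron transcripts. The levels given above for these genes are likewise mostly levels of other transcripts.

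Genes with exclusive bases at the coding 3′ end also had such counts, in part. SNRNP200 had 88, 69 and 181 counts on its coding transcript, and 72, 28 and 97 on SNRNP200-204, and its coding share was 47.6%, 65.1% and 58.4%. EFTUD2 had 61.3% coding counts and 35.5% on retained-intron transcripts. SRSF4 had 187, 264 and 87 counts on its coding transcript and 92, 35 and 94 on the retained-intron SRSF4-207, so its coding share ranged from 48.1% in replicate 3 to 88.3% in replicate 2. In TPM SRSF4-207 had 2.49, 1.12 and 1.73, so the highest level was that of replicate 1.

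**Figure D4:**
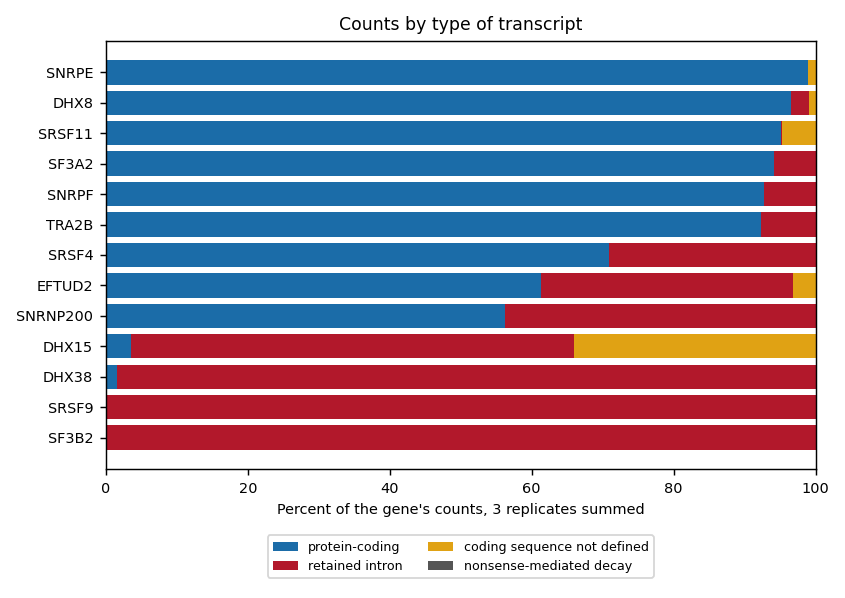
Share of each gene's counts (percent, 3 replicates summed) on protein-coding, retained-intron, decay and undefined transcripts, for the 13 members with at least 10 counts in every replicate and under 99% coding counts. SF3B2, SRSF9, DHX38 and DHX15 are nearly without a protein-coding part, and the decay type is not visible in any bar.

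Because the libraries were primed with oligo(dT), the retained-intron transcripts were searched for internal runs of at least 10 As, in their exclusive bases or within 60 bases past their end. Of the 142 retained-intron transcripts of members, the 115 with an exclusive base were included. Of the 17 with at least 10 counts in all, 9 had such a run (52.9%), compared with 3 of 98 (3.06%) with fewer counts. Over all genes the shares were 42.1% and 5.95%. The counted transcripts of members had more exclusive bases, with a median of 731 compared with 216. Among those with at least 500 exclusive bases the shares were 8 of 12 (66.7%) and 3 of 15 (20%), compared with 52.4% and 16.3% over all genes. The part of such runs in the counts was not tested. The runs of 2 members are shown because they lie in transcripts whose counts are given here, read on the strand of the gene from hg38 with the run in capitals. They lie outside the exons of coding transcripts, at chr11:66053858-66053904 (plus) and chr19:2245158-2245207 (plus).
SF3B2-211: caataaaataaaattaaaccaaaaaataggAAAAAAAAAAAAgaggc
SF3A2-204: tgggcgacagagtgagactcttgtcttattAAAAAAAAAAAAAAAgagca

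The run of SF3B2-211 has 12 As and starts 73 bases before the end along the transcript, and that of SF3A2-204 has 15 As and begins 1 base beyond the first base past its annotated end. SF3B2-211 had 57, 31 and 89 counts and SF3A2-204 had 21, 13 and 23, and in both replicate 2, the smallest library, gave the fewest.

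The replicates were compared gene by gene per 1000000 nonmitochondrial counts, for the 30 members with at least 50 counts in each library. Replicate 3 was below the mean of replicates 1 and 2 in 19 of them (63.3%), compared with 41.9% of 5656 nuclear genes, and the median log2 ratio was −0.24 compared with 0.08. The lowest ratios were those of SRSF4, −0.72 (95% exact interval −0.97 to −0.48), and SF3B5, −0.69 (−0.72 to −0.65). The highest were those of SNRNP200, 1.06 (0.81 to 1.28), SNRPB, 0.43 (0.28 to 0.57), and SF3B6, 0.37 (0.34 to 0.40). These intervals treat each read as independent and leave out variation between replicates. Without molecular identifiers reads can be copies of 1 molecule, so the intervals may be too narrow even for counting error.

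The members of 1 complex did not move together in replicate 3, as SF3B5 and SF3B6 lay on opposite sides of 0. Between replicates 1 and 2 the median absolute log2 ratio was 0.12, compared with 0.30 for replicate 3 against their mean, and over all 5656 nuclear genes these medians were nearly the same, at 0.12 and 0.27. For SNRNP200, replicate 2 was itself 0.70 below replicate 1 on the log2 scale. The SD of log2(TPM + 1) over the replicates had a median of 0.46 for the 36 members with at least 10 counts in every replicate, compared with 0.33 for 6515 other protein-coding genes. These passed the same filter and had a mean count between the lowest and highest of the 36. Levels were not matched within that range. With TMM-scaled counts per 1000000 the medians were 0.29 and 0.23. The mitochondrial share moved with replicate 3. On a TPM scale of nuclear genes alone, SNRPA had 748, 751 and 754 in replicates 1, 2 and 3, in place of 578, 635 and 421. DHX15 had 105, 106 and 104 on that scale. SF3B5, with 6345, 6909 and 3848, and SRSF4, with 26.4, 36.7 and 13.3, were still lowest in replicate 3. The part of the mitochondrial share in the differences over all members was not tested.

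**Figure D5:**
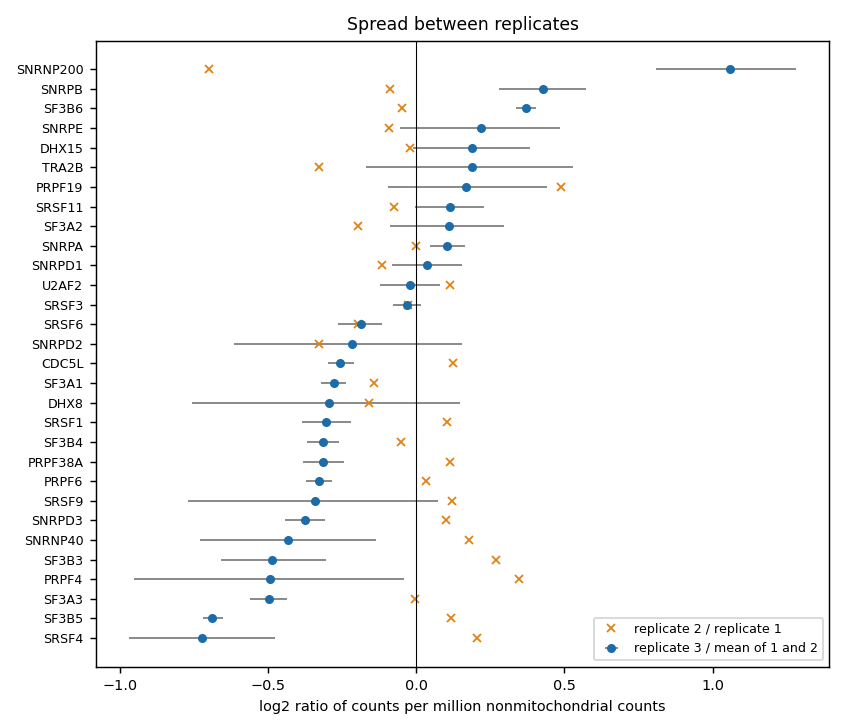
Log2 ratio of counts per 1000000 nonmitochondrial counts for 30 members, with circles for replicate 3 over the mean of replicates 1 and 2 and crosses for replicate 2 over replicate 1. Bars are 95% exact binomial intervals, which treat each read as independent and leave out variation between replicates. Of the circles 19 lie below 0, and the crosses lie closer to 0 for most genes, with the cross of SNRNP200 at −0.70 as the farthest.

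Since the study sorted genes by expression to set them beside iMs and G4s, the promoters of the members were searched for sequences able to form them. The window was 250 bases before to 50 bases after the start in RefSeq (GRCh38.p14), and the motif was 4 tracts of at least 3 Cs (iM, or G4 on the other strand) or 3 Gs (the reverse) with loops of 0 to 7 bases. A window was given for 45 members and not for SNRPD1, SF3B3, TRA2A, SRSF2 and PRPF3. A match was found in 5 of the 45 (11.1%), compared with 38.9% of 15334 protein-coding genes and 29.6% of 27305 genes with a window. With loops of up to 12 bases 10 members matched, compared with 53.6% of protein-coding genes. A match is a sequence and not a folded structure, and the CUT&Tag data were not analysed here. The 5 matches are shown on the strand of the gene, with the tracts in capitals, as the sequences the study's question turns on. They lie at chr17:44899651-44899695 (minus), chr22:24555455-24555517 (plus), chr2:38751553-38751611 (minus), chr21:43107718-43107764 (minus) and chr19:55654895-55654947 (plus).
EFTUD2: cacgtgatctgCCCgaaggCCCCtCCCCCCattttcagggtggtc
SNRPD3: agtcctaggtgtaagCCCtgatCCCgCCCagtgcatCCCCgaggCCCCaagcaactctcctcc
SRSF7: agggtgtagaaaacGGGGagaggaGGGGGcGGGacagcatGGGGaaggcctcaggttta
U2AF1: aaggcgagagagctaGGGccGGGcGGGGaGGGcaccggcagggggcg
U2AF2: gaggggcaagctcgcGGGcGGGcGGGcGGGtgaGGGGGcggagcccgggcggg

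In EFTUD2 the run of 6 Cs counts as a pair of tracts with a loop of 0 bases. The matches began between 239 and 125 bases before the start. The 5 genes were spread over the range of levels, with SNRPD3 at 180 TPM and U2AF2 at 83.4 TPM in the high category, EFTUD2 at 4.08 TPM, U2AF1 at 1.10 TPM and SRSF7 under the floor. Both subunits of U2AF had G-tracts on the strand of the gene. The members with the highest levels, SF3B5 and SF3B6, had no match in this window with tracts of at least 3 bases. The study also searched for tracts of 2 or more. With these all 45 members with a window matched, compared with 93.1% of protein-coding genes.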

How the data were processed

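RNA of HEK293T cells (3 independent biological replicates) was sequenced by the authors from 3′ libraries. For each of 247541 transcripts the authors deposited a whole-number count, a transcript length in bases and a TPM value, for which counts were divided by length and scaled to sum to 1000000 in each library. The submitters' processing notes name Trimmomatic 0.38.0, HISAT2 2.2.1, featureCounts 2.2.1 and hg38. The settings for strand and for reads on several transcripts are not given in the sources used here.

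Identifiers without version were matched to GENCODE 44 on GRCh38 (223558 transcripts, 61193 genes), and counts and TPM were summed per gene. The unmatched rows held 0.158% to 0.166% of counts and stayed in the library totals. Means and SDs are over replicates, and no test was made. Quartiles were taken over the 13296 genes with a mean TPM of at least 1. Totals of 6262175 to 8521624 counts set the limit of 3 counts. Genes sharing sequence were found by 31-base words, and a pseudocount of 1 was used for log2 values.

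The members, the lists of other pathway genes and markers, and the alternatives were chosen with earlier results of these data known. Counts in each replicate are given for the 2 highest and the lowest detected member of each group, every SR and TRA2 gene with counts, members with most counts on noncoding transcripts, members under the floor, and members whose result turns on them. The step from counts to TPM and the motif search were tried on simulated data, with counts drawn for each gene at known levels. That simulation held no transcripts with shared bases and no 3′ priming, so it cannot speak to those limits. Some sequences are not reported here. Python 3.11.15, numpy 2.4.6, pandas 2.3.3, scipy 1.17.1, pysam 0.24.0 and matplotlib 3.10.9 were used, with edgeR 4.0.16 (TMM) and DESeq2 1.42.0 (size factors) in R 4.3.3 for scaling only.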

Additional observations from a re-analysis of the deposited data

How the results depend on the processing

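No paired analysis was possible because only 1 condition was sampled. When any TPM above 0 was taken as expressed, 30 members were in the high category in place of 19. The median TPM of 13.6 became 18.1 without division by length, 19.2 with mitochondrial genes left out and 22.7 over the members above 3 counts. Members with 0 counts in every replicate were 6, compared with 10 at or under 3. Averaging the shares of single genes gave 85.0% protein-coding, 13.8% retained-intron and 0% decay transcripts, and 79.3% protein-coding for the SR and TRA2 genes (94.2% by TPM), since genes with few counts then weigh as much as the highest. Members with most counts on noncoding transcripts were 12 without a filter on low counts and 4 to 7 with a replicate left out (7 without replicate 2, which adds TRA2A, SNRPA1 and U2AF1). The median SD was 0.141 to 0.470 with a replicate left out, and 0.141 without replicate 3, where it was 0.39 over all. Promoter matches numbered 45 with tracts of at least 2 bases (93.1% of protein-coding genes), 10 with loops of up to 12 and 2 with 5 tracts. Among the alternatives chosen after seeing the data, 16 of the 17 counted retained-intron transcripts had a run of at least 6 As, and 15 to 19 members had a fully shared 3′ end with other windows or on the same strand only. Rescaling without mitochondrial genes moved the mean TPM of 27 of 44 members by more than 1 SD. Leaving out a replicate or taking the median cannot move a mean of 3 values by 1 SD, so these settings are no check on the gene levels. The remaining counts and shares stayed within 1.5 times or 1 SD of the values given. For mean shares with a replicate left out this was likewise fixed in advance. Depth limits the members at a few counts, such as SNRPC, SNRPF, TRA2A and SRSF10.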
